A study of Homo sapiens with 4 samples.

Results

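The collagen chain genes, each coding for 1 alpha chain of a collagen molecule, were followed in OVSAYO cells, a human cell line from an ovarian clear cell carcinoma. A gene was included when the RefSeq accession of a spot on the array led to a symbol made of COL, a type number, A and a chain number. This gave 70 of 43376 non-control spots, 61 of 41000 probes and 41 of 17721 genes with a symbol. Of these 41 genes, 26 were detected on all 4 arrays, 6 on some arrays and 9 on none. Genes detected on none were COL2A1, COL3A1, COL4A3, COL4A6, COL5A3, COL6A6, COL11A1, COL15A1 and COL19A1, and all probes of these genes lay near background on every array. Detected means well above background by the scanner software, in at least 50% of the spots of at least 1 probe.

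The study asked which genes respond to CoCl2, a chemical that mimics hypoxia, in a manner that depends on the transcription factor Sp1. Cells were transfected with a non-specific control siRNA (NS-si) or a pool of siRNAs against Sp1 (Sp1-si), cultured for 40 h according to the labels (the study's text gives a shorter time), and then kept without CoCl2 or exposed to 0.5 mM CoCl2 for 4 h. This gave NS-si, Sp1-si, NS-si → CoCl2 and Sp1-si → CoCl2 cells, with RNA of each hybridised to 1 single-colour Agilent array, all 4 on 1 slide. The siRNAs came from different suppliers, so supplier and target cannot be told apart in any Sp1-si to NS-si ratio. Each condition has 1 array, so no difference could be set against replicates and none was tested. Precision is limited by this number of arrays.

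Collagens are triple helices of alpha chains, and each helix is in general built from chains of 1 type, either identical or different. Fibrillar types I, II, III, V, XI, XXIV and XXVII form the cross-banded fibrils of connective tissue, type IV forms the sheet of basement membranes, type VI forms beaded filaments, and the FACIT collagens sit on the surface of fibrils. Epithelial cells and carcinomas derived from them make basement membrane collagens, whereas fibroblasts make most of the fibrillar ones, and Sp1 binds GC-rich boxes that are found in many promoters, collagen promoters among them.

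Promoter windows from RefSeq (GRCh38.p14), from 250 bases before to 50 bases after a transcription start, were given for 30 of the 41 genes. COL1A2, COL9A3, COL20A1 and COL6A1, which had some of the largest Sp1-si to NS-si ratios described later, were not among them. The 5 windows below are shown because they belong to genes past 1 in at least 1 of these ratios, or with a bound past it, and because that of COL4A1 overlaps that of its neighbour. Each is written 5′ to 3′ on the strand of the gene, and capitals mark the GC box GGGCGG on either strand. COL21A1, higher in Sp1-si cells, also had bounds past 1 and is not shown. Its 3 windows held 0, 1 and 0 matches of this box. Of the genes shown, COL16A1 (chr1:31703968-31704267, minus strand) and COL12A1 (chr6:75206004-75206303, minus strand) were higher in Sp1-si cells. COL17A1 (chr10:104085831-104086130, minus strand), COL25A1 (chr4:109302609-109302908, minus strand) and COL4A1 (chr13:110307108-110307407, minus strand) were lower, COL4A1 past 1 only with CoCl2.
COL16A1: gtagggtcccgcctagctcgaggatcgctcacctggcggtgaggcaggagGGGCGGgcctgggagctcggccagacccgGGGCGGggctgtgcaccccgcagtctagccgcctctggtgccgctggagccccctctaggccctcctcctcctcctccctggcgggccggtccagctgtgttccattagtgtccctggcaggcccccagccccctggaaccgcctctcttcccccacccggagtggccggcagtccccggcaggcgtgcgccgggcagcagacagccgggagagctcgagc
COL12A1: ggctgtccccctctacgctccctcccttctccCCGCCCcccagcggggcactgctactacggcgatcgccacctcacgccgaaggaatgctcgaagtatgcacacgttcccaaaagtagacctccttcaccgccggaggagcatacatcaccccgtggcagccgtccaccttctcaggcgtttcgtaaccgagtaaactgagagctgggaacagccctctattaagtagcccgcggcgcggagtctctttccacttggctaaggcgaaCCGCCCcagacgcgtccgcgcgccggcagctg
COL17A1: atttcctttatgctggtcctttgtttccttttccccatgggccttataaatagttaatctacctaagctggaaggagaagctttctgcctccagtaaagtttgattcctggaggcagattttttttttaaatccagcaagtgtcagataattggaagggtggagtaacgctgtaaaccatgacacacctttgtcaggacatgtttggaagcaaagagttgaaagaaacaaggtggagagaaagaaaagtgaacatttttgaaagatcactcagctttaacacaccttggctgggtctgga
COL25A1: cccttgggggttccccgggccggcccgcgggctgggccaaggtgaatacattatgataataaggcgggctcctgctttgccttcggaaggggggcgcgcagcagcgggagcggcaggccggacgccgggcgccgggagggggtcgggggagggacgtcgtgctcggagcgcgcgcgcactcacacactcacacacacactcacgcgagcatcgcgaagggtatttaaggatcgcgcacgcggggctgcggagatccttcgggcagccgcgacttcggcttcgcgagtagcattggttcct
COL4A1: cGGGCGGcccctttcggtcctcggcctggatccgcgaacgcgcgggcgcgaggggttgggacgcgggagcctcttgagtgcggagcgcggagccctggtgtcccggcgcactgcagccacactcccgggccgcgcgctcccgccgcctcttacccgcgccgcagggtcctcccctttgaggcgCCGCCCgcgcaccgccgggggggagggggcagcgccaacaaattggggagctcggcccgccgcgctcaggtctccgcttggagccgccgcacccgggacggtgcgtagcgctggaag

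The letters GGGCGG stood in the windows of COL16A1, COL12A1 and COL4A1, with 2 matches in each, and in neither of the windows of COL17A1 and COL25A1. Over all windows of these genes the box was present for 21 of 30 collagen genes (70%), against 48.3% of 27305 genes with a window. By window it was present in 24 of 42 (57.1%), against 45% of 35116 windows. The core of the hypoxia response element, ACGTG or GCGTG on either strand, was present for 16 of 30 collagen genes (53.3%), against 52.4% of all genes. These matches describe letters only. The window of COL4A1 overlaps that of COL4A2 by 226 bases, and the transcription starts of this pair lie 127 bases apart on opposite strands of chromosome 13. The starts of COL4A3 and COL4A4 lie 419 bases apart on chromosome 2, again on opposite strands.

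The 75th percentile of the processed signals of non-control probes was between 977 and 1287 on the 4 arrays, and between 33081 and 34542 spots per array were well above background. SP1 itself, the target of the siRNA, had processed signals of 553 (NS-si), 39.2 (Sp1-si), 429 (NS-si → CoCl2) and 38.7 (Sp1-si → CoCl2), a mean over 10 spots each. Its log2 ratio of Sp1-si to NS-si was -3.77 without and -3.87 with CoCl2. Of 8 markers of ovarian clear cell carcinoma and epithelium, 8 were detected on all 4 arrays. Of 8 fibroblast markers, 4 were detected on all 4 arrays (DCN, LUM, THY1, ACTA2), POSTN on 1, and PDGFRA, PDGFRB and FAP on none. PTPRC, the pan-leukocyte marker, was detected on none.

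Throughout, a signal is the processed signal of the scanner software in arbitrary units, not scaled between arrays, and is not compared between genes, since probes differ in brightness. A ratio is a difference of log2 signals after each array was set to its own 75th percentile. A gene was counted as higher or lower at a log2 ratio of at least 1 in size with both arrays well above background. An SD given with a ratio is the spread between spots of like signal within an array pair, and covers neither the culture nor the labelling. It was 0.43 on the log2 scale for the dimmest probes and 0.06 for the brightest in the CoCl2 ratio of NS-si cells.

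Detection of collagen genes was less frequent than that of all genes. The share detected on all 4 arrays was 63.4% (26 of 41), against 80.7% of all genes, and the share detected on at least 1 array was 78.0% (32 of 41), against 87%. The share detected on none was 22.0%, against 13%. Of the 10 fibrillar genes measured, COL1A2, COL5A2, COL11A2, COL24A1 and COL27A1 were detected throughout, COL5A1 on some arrays, and COL2A1, COL3A1, COL5A3 and COL11A1 nowhere. COL3A1, whose product accompanies type I collagen in soft connective tissue, had 3 probes that were all near background. Of the 6 basement membrane genes, COL4A1, COL4A2, COL4A4 and COL4A5 were detected throughout. Of the 5 type VI genes, COL6A1, COL6A2 and COL6A3, which code for the classical heterotrimer, were detected on every array, COL6A5 on some and COL6A6 on none. The FACIT genes COL9A1, COL9A2, COL9A3, COL12A1, COL14A1 and COL20A1, the transmembrane genes COL17A1, COL23A1 and COL25A1, and COL7A1, COL8A2, COL10A1, COL18A1 and COL26A1 were also detected on all 4 arrays.

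**Figure D1:**
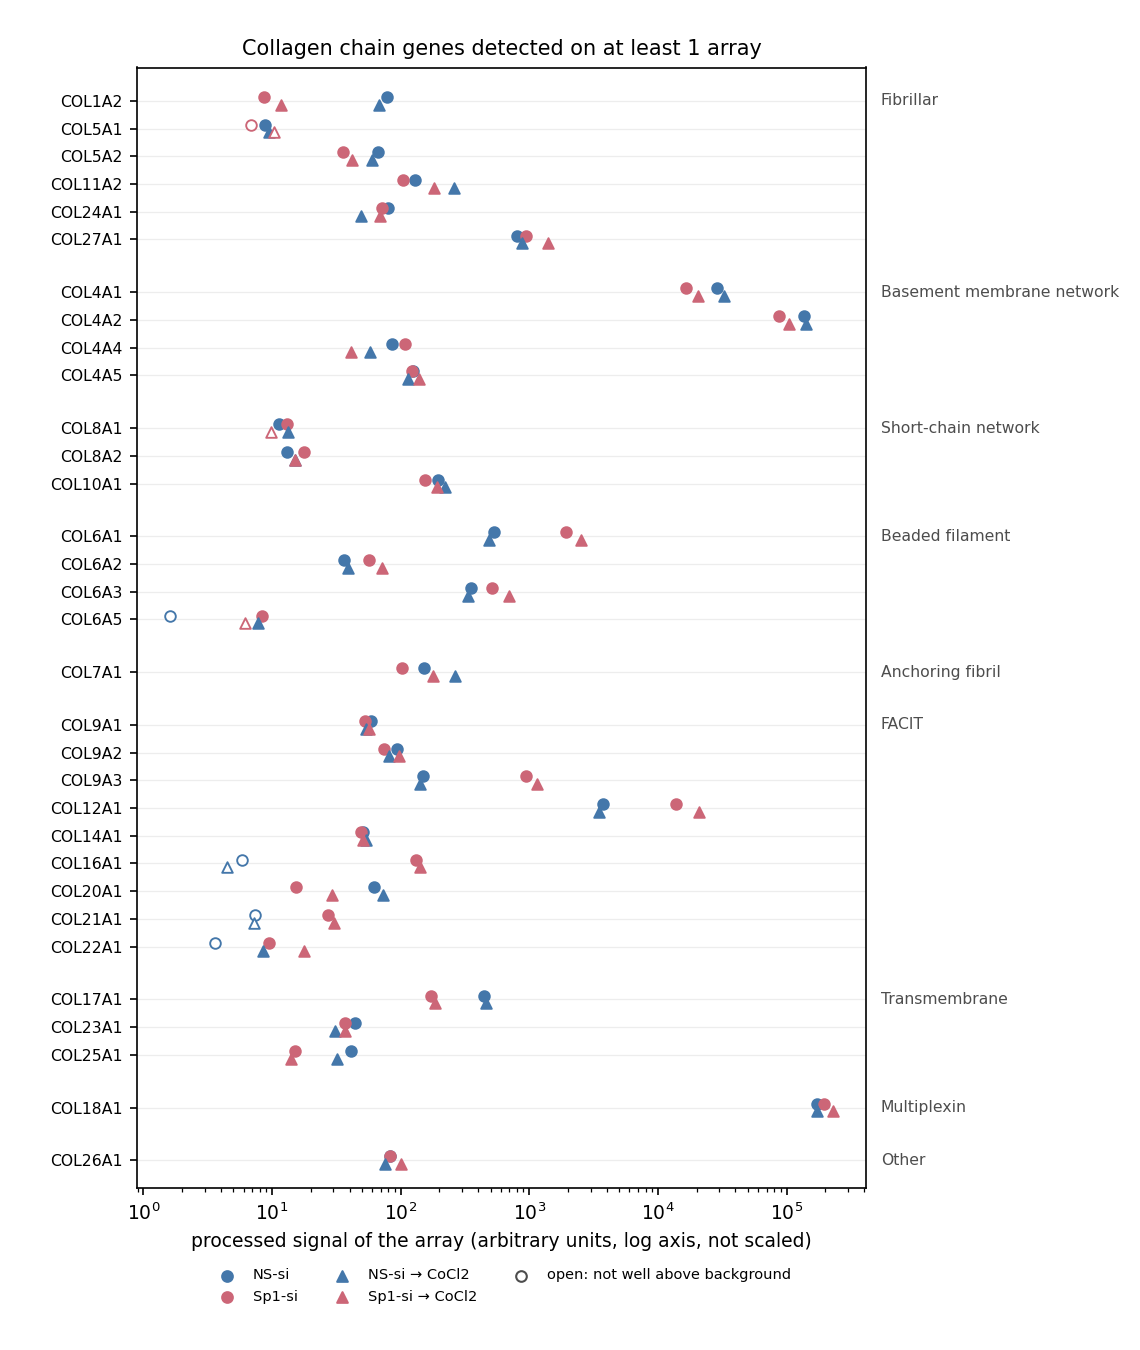
Processed signal (arbitrary units, log axis, not scaled between arrays) of the brightest probe of each of the 32 collagen chain genes detected on at least 1 array, by structural class. Blue points are NS-si and red points Sp1-si cells, circles without and triangles with CoCl2, and open symbols were not well above background. The blue and red points of COL1A2, COL16A1, COL9A3, COL6A1 and COL12A1 lie apart, whereas circles and triangles of 1 colour lie close together for most genes.

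Among the 6 genes detected on some arrays, COL16A1 and COL21A1 were well above background on both Sp1-si arrays and on neither NS-si array, a pattern shared by 0.389% of all genes. COL5A1 had the opposite pattern, which 0.435% of all genes shared. COL22A1 was not well above background in NS-si cells alone, COL8A1 in Sp1-si → CoCl2 cells alone, and COL6A5 was well above background in Sp1-si and in NS-si → CoCl2 cells. The signals of COL5A1, COL6A5, COL8A1 and COL22A1 were at most 17.6 on any array, so their patterns rest on values close to the detection limit.

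The first comparison asked how collagen expression differed between Sp1-si and NS-si cells without CoCl2. COL9A3, COL6A1 and COL12A1 were higher in Sp1-si cells by 3.80-fold to 6.62-fold, and COL16A1 went from undetected to clearly detected. COL1A2, COL20A1, COL25A1 and COL17A1 were lower in Sp1-si cells, COL1A2 by 8.59-fold. Of 27 collagen genes measured on both arrays, 3 were higher and 4 lower (11.1% and 14.8%), against 5.87% and 5.81% of all genes. The median log2 ratio was -0.09 over these genes and -0.01 over all 14616 genes measured. The other 20 genes lay between -0.85 (COL5A2) and 0.70 (COL6A2). In such bulk RNA, fewer cells of a type and less RNA per cell cannot be told apart.

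The same comparison in cells exposed to CoCl2 used the other pair of arrays. COL9A3, COL6A1 and COL12A1 were again higher by at least 1 on the log2 scale, and COL1A2, COL17A1, COL20A1 and COL25A1 again lower, now with COL4A1 (-1.06, SD 0.06). Of 27 genes measured, 3 were higher and 5 lower (11.1% and 18.5%), against 7.06% and 7.72% of all genes. The median was -0.32 over these genes and -0.02 over all genes. Without scaling of the arrays the median of all genes moved to 0.38 and that of the collagen genes to 0.08, and the counts to 5 higher and 4 lower, so the direction of the collagen median holds only relative to all genes. Over the 26 genes measured on all 4 arrays, 3 were higher and 4 lower in both comparisons (4.19% and 4.02% of all genes). Of these 26, 22 had the same sign in both, a count not made over all genes. Pearson's r between both comparisons, which share no array, was 0.957 across the 26 genes and 0.822 across 14283 genes. Genes are not replicates, and all 4 arrays were on the same slide.

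**Figure D2:**
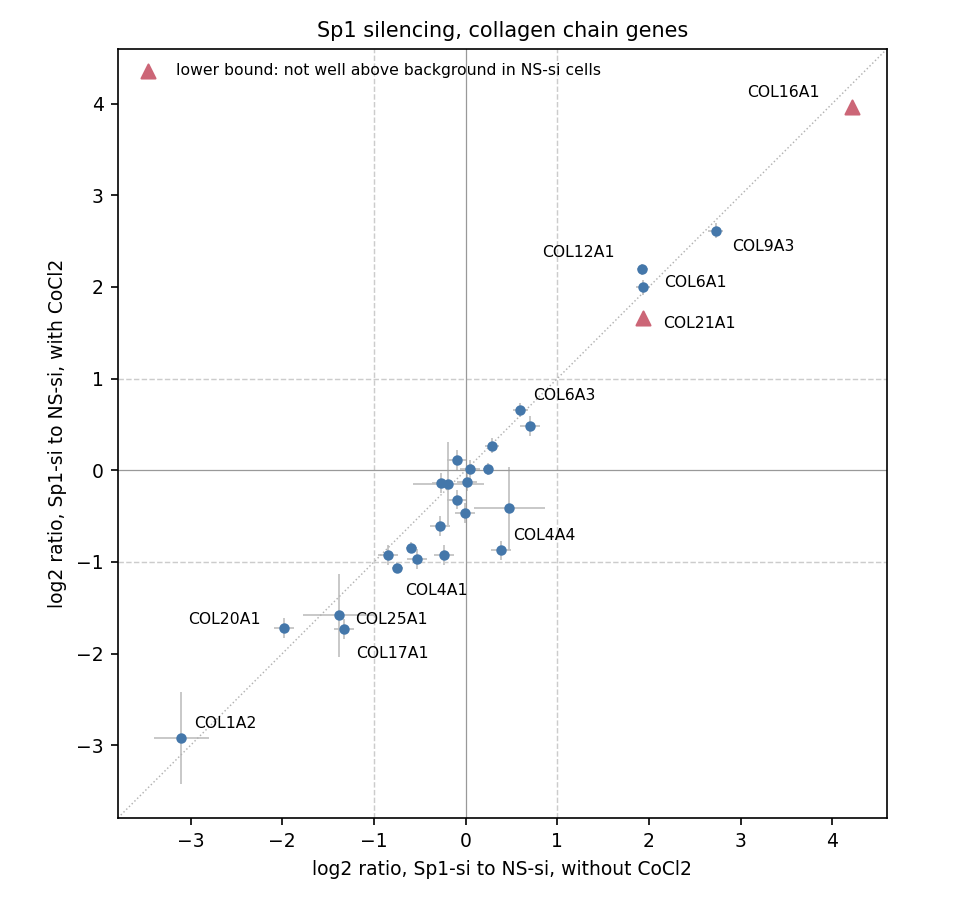
Log2 ratio of Sp1-si to NS-si cells without CoCl2 (x axis) and with CoCl2 (y axis) for the 26 collagen chain genes measured on all 4 arrays (blue), with bars of 1 SD between spots, and the bounds of COL16A1 and COL21A1 (red triangles). Dashed lines mark 1 and -1, and the dotted line equal ratios. COL1A2 lies lowest at -3.10 and -2.92, and COL9A3 highest of the measured genes at 2.73 and 2.62.

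Of the fibrillar genes, COL1A2, which codes for the second chain of type I collagen, the main collagen of bone, tendon and skin, had 10 spots per array. Its mean signal was 77.5 (NS-si), 8.7 (Sp1-si), 67.2 (NS-si → CoCl2) and 11.7 (Sp1-si → CoCl2). The highest of the 10 spots was 11.2 in Sp1-si and 20.3 in Sp1-si → CoCl2 cells. The lowest was 70.3 in NS-si and 60.4 in NS-si → CoCl2 cells, so the spots did not overlap between siRNAs. These spots are repeats on 1 array per condition and not replicates of it. Both Sp1-si arrays were close to the detection limit, with 8 and 6 of 10 spots well above background. The log2 ratio was -3.10 (SD 0.30) without and -2.92 (SD 0.50) with CoCl2. A further probe of COL1A2 stayed near background on every array, so this gene rests on 1 probe. With a normexp background correction its ratio was -0.96 without and -1.18 with CoCl2. Of the 8 fibroblast markers 4 were measured. Of these, 2 were past 1 downward without CoCl2 and 1 with it, against 5.81% and 7.72% of all genes. LUM was at -1.07 without and -0.85 with CoCl2, ACTA2 at -1.19 and -1.05, DCN at -0.88 and -0.60, and THY1 at 0.06 and -0.38. Of the 8 carcinoma and epithelium markers, all measured, 1 was past 1 downward in each comparison. This was NAPSA, at -2.33 without and -2.39 with CoCl2, further down than any of these fibroblast markers. The summed signal of the fibroblast list, not scaled, was 3089 (NS-si), 2328 (Sp1-si), 3090 (NS-si → CoCl2) and 2805 (Sp1-si → CoCl2). THY1 alone made up 1706, 1707, 2063 and 2089 of these sums, so they say little about the other markers. The part of this list in the COL1A2 result was not tested.

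COL5A2, a chain of type V collagen, which controls the width of type I fibrils, had signals of 66.5, 35.5, 59.7 and 41.6 in NS-si, Sp1-si, NS-si → CoCl2 and Sp1-si → CoCl2 cells. The Sp1-si signal was below the NS-si signal without and with CoCl2, and the log2 ratios of -0.85 and -0.92 (SD 0.11 each) stayed short of 1 in size. COL5A1, its partner chain, was at 8.8, 6.9, 9.5 and 10.3 and stood well above background only on the 2 NS-si arrays. With CoCl2 its unscaled signal was the higher one in Sp1-si cells, and its scaled bounds of 1.24-fold and 1.21-fold lower are smaller than the spot SD, so no direction is given. COL24A1 and COL27A1, both fibrillar, had log2 ratios between -0.09 and 0.29 in these comparisons.

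Of the basement membrane genes, COL4A1 and COL4A2 code for the common type IV trimer. COL4A1 had signals of 28648 (NS-si), 16442 (Sp1-si), 32304 (NS-si → CoCl2) and 20375 (Sp1-si → CoCl2). COL4A2 had signals of 136538, 87075, 141590 and 103975 in the same order. For both genes the Sp1-si signal was below the NS-si signal, both without and with CoCl2. The log2 ratio of COL4A1 was -0.75 without and -1.06 with CoCl2, and that of COL4A2 was -0.59 and -0.84 (SD 0.06 each). The other probe of COL4A1, with signals of 379, 222, 717 and 462, gave -0.72 and -1.03. Both genes of this head-to-head pair thus had the same direction in both comparisons, with only COL4A1 past 1, and only with CoCl2. Without scaling COL4A1 was at -0.66 there and with scaling to the median at -0.95, and in the authors' value table it fell just short of the threshold. COL4A5, a chain of the type IV network of the kidney glomerulus and other specialised membranes, was at 125, 122, 114 and 138, with log2 ratios of 0.01 and -0.12. COL4A3, the head-to-head neighbour of COL4A4, was near background.

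Type VI collagen is a heterotrimer of the products of COL6A1, COL6A2 and COL6A3. COL6A1 had signals of 528 (NS-si), 1940 (Sp1-si), 484 (NS-si → CoCl2) and 2538 (Sp1-si → CoCl2), and log2 ratios of 1.93 (SD 0.08) without and 1.99 (SD 0.08) with CoCl2. COL6A2 had signals of 36.0, 56.2, 39.2 and 72.1 and log2 ratios of 0.70 and 0.48 (SD 0.11 each). COL6A3 had signals of 351.2, 512, 335 and 696 and log2 ratios of 0.60 and 0.65 (SD 0.08 each). Signals of all 3 genes were higher on both Sp1-si arrays than on both NS-si arrays, with only COL6A1 past 1. The dimmer probe of COL6A2 was well above background on the Sp1-si arrays alone, at least 2.04-fold higher without and at least 3.53-fold higher with CoCl2, and a dim second probe of COL6A1 was detected in Sp1-si cells alone, at least 1.32-fold higher.

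The FACIT genes differed in both directions. COL9A3, a chain of type IX collagen of cartilage, had signals of 149 (NS-si), 947 (Sp1-si), 141 (NS-si → CoCl2) and 1141 (Sp1-si → CoCl2), and log2 ratios of 2.73 (SD 0.08) and 2.62 (SD 0.08). COL9A1 and COL9A2, which code for the other chains of the same molecule, were at -0.10 and -0.32 and at -0.26 and -0.14. Within type IX, then, 1 of 3 chains was past 1.

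COL12A1 codes for type XII collagen, which decorates type I fibrils. Its signals were 3758 (NS-si), 13734 (Sp1-si), 3480 (NS-si → CoCl2) and 20921 (Sp1-si → CoCl2), and its log2 ratios were 1.92 (SD 0.06) and 2.19 (SD 0.06). The other probe, at 618, 1876, 671 and 3750, gave 1.66 and 2.08. Both probes therefore separated the Sp1-si arrays from the NS-si arrays. COL14A1, a close relative of COL12A1, was at 51.0, 49.0, 53.8 and 51.4, with log2 ratios of 0.00 and -0.46.

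COL16A1, whose product is a minor component of several fibril and filament networks, had signals of 5.9 (NS-si), 131.8 (Sp1-si), 4.5 (NS-si → CoCl2) and 142.2 (Sp1-si → CoCl2). It was not well above background in NS-si cells, and was at least 18.5-fold higher in Sp1-si cells without and at least 15.6-fold higher with CoCl2. COL21A1 had signals of 7.3, 27.1, 7.2 and 30.1 and was at least 3.81-fold and at least 3.16-fold higher. Each of these genes was represented by 1 spot per array. COL20A1 went the other way, with signals of 62.5, 15.3, 73.1 and 29.3 and log2 ratios of -1.98 (SD 0.11) and -1.72 (SD 0.11), or -0.58 and -0.96 with the normexp correction. That SD belongs to its mean signal over the 4 arrays. Its Sp1-si signals lie in the range of the dimmest probes, where the SD is 0.39 without and 0.45 with CoCl2. COL22A1, at 3.6, 9.5, 8.4 and 17.6, was at least 1.33-fold higher without CoCl2 and had a log2 ratio of 0.66 (SD 0.45) with it.

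COL17A1 codes for a transmembrane collagen of the hemidesmosome, the junction that ties epithelial cells to the basement membrane. Its signals were 447 (NS-si), 171 (Sp1-si), 463 (NS-si → CoCl2) and 184 (Sp1-si → CoCl2), and its log2 ratios were -1.33 and -1.73 (SD 0.11 each). Its other probe gave -1.48 and -1.42, from signals of 53.0, 18.3, 63.5 and 31.2. Both probes were lower on both Sp1-si arrays. COL25A1, a transmembrane collagen best known from neurons, had signals of 41.1, 15.2, 31.8 and 14.01 and log2 ratios of -1.38 (SD 0.39) and -1.58 (SD 0.45), and its other probe was detected on the NS-si arrays alone, at least 2.62-fold and at least 1.81-fold lower in Sp1-si cells. With the normexp correction COL25A1 was at -0.29 and -0.68. COL23A1, the remaining transmembrane gene, was at -0.19 and -0.14. COL18A1, a basement membrane collagen whose C-terminal fragment is endostatin, had signals of 172162, 196303, 172909 and 230101 and log2 ratios of 0.24 and 0.01. COL10A1, the collagen of hypertrophic cartilage, was at -0.28 and -0.61, the short-chain gene COL8A2 at 0.47 (SD 0.39) and -0.41 (SD 0.45), and COL26A1 at 0.05 and 0.01.

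The next comparison asked how CoCl2 altered collagen expression, in NS-si cells first. Only COL7A1 and COL11A2 reached 1 on the log2 scale, both upward, among 28 collagen genes measured on both arrays (7.14%), against 3.8% of all genes that were higher. None was lower by that measure, against 3.22% of all genes. The median log2 ratio was 0.20 over these genes and 0.00 over all 14620 genes. Of the 28, 24 were above 0, a count not made over all genes. Without scaling, the median of the collagen genes was -0.03 and that of all genes -0.22, so the small positive median also holds only relative to all genes. The other 26 genes lay between -0.49 (COL24A1) and 0.46 (COL8A1).

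COL7A1, which codes for the anchoring fibrils that fasten epithelial basement membranes to the tissue beneath, had signals of 152.5 (NS-si), 101.6 (Sp1-si), 263 (NS-si → CoCl2) and 178 (Sp1-si → CoCl2). Its CoCl2 ratio was 1.01 (SD 0.11) in NS-si cells and 0.58 (SD 0.10) in Sp1-si cells, where it did not reach 1. COL11A2, a fibrillar chain of cartilage, had signals of 128, 104.9, 259 and 180 and CoCl2 ratios of 1.24 (SD 0.11) and 0.55 (SD 0.10). On both genes the CoCl2 arrays were higher for either siRNA, and in CoCl2-exposed cells the Sp1-si to NS-si ratio was -0.96 and -0.92. COL7A1 is at the threshold, and its ratio in NS-si cells was between 0.79 and 0.96 without scaling, with the percentile over probes detected on all arrays, in the authors' value table and with normexp. COL11A2 was at 0.93 with normexp.

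The probes of COL4A1 disagreed on CoCl2. On the bright probe the CoCl2 ratio was 0.40 with the control siRNA and 0.08 with Sp1 siRNA, and on the dimmer one it was 1.14 and 0.83. COL4A2 had 0.28 and 0.03 on its probe. COL18A1 also had unequal probes, at 0.23 and 0.00 on the bright probe and at 0.64 and 0.19 on the other. COL12A1 had 0.11 and 0.38 on the bright probe and 0.35 and 0.77 on the other. COL1A2, COL6A1 and COL9A3, all past 1 between siRNAs, had CoCl2 ratios between 0.02 and 0.20 for either siRNA.

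In Sp1-si cells, 0 of 29 collagen genes were higher by at least 1 after CoCl2 and 1 was lower (3.45% of these genes), against 3.45% and 3.72% of all genes. The lower one was COL4A4, a chain of the glomerular type IV network. Its signals were 86.1 (NS-si), 108.2 (Sp1-si), 57.5 (NS-si → CoCl2) and 41.3 (Sp1-si → CoCl2), and its CoCl2 ratio was -1.62 (SD 0.10) in Sp1-si cells and -0.36 (SD 0.11) in NS-si cells, the former -0.91 with normexp. The CoCl2 arrays were below the others for either siRNA. The remaining 28 genes lay between -0.45 (COL8A2) and 0.71 (COL20A1), with a median of 0.04 over all 29. COL16A1 and COL21A1, measured after CoCl2 only in Sp1-si cells, had ratios of -0.12 and -0.08.

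**Figure D3:**
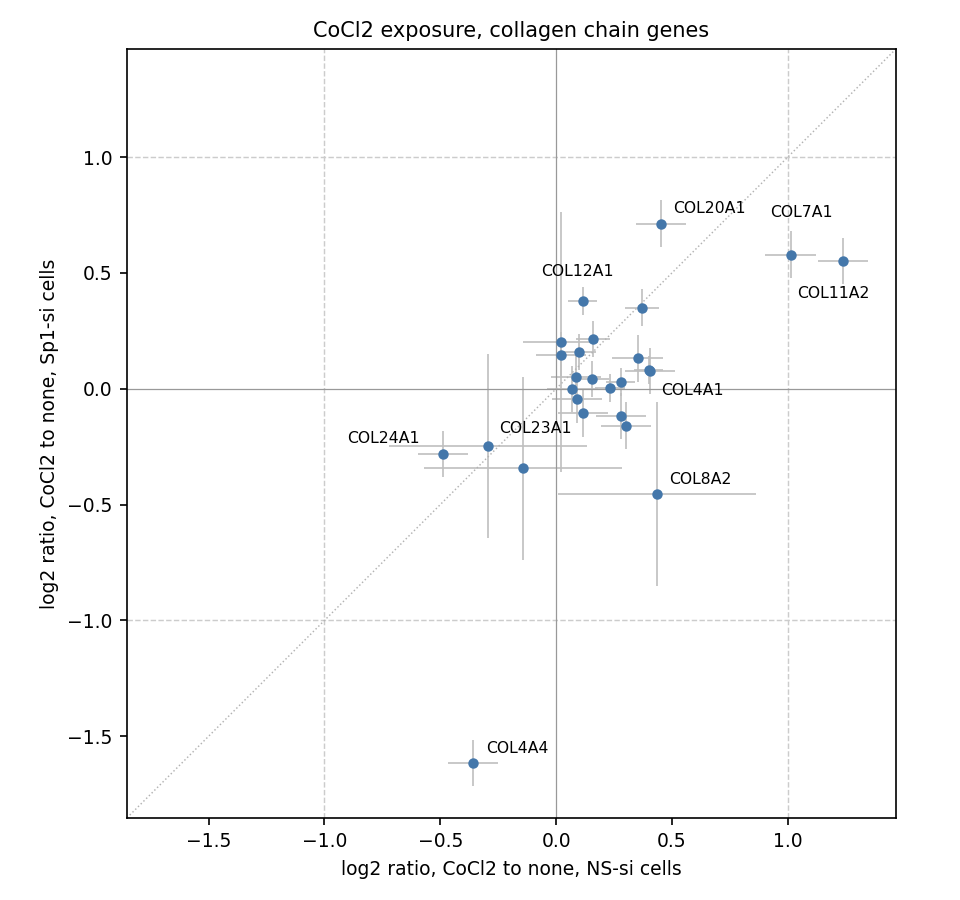
Log2 ratio of CoCl2-exposed to unexposed cells in NS-si cells (x axis) and Sp1-si cells (y axis) for the 26 collagen chain genes measured on all 4 arrays, with bars of 1 SD between spots. Dashed lines mark 1 and -1, and the dotted line equal ratios. Most genes lie near the origin, COL7A1 and COL11A2 stand to the right at 1.01 and 1.24, and COL4A4 stands at the bottom at -1.62.

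The difference between both CoCl2 ratios, Sp1-si minus NS-si, asked whether the CoCl2 response depended on Sp1. Of 26 genes measured on all 4 arrays, 0 were past 1 upward and 1 downward (3.85%), against 0.973% and 2.88% of all genes. This was COL4A4 at -1.26 (SD 0.16), which became -0.80 without scaling and -0.74 with normexp. The others lay between -0.89 (COL8A2, a dim gene with an SD of 0.60) and 0.27 (COL12A1), with COL11A2 at -0.69 (SD 0.16) and COL7A1 at -0.43 (SD 0.16). The median over the 26 genes was -0.17, against 0.01 over all genes. No collagen gene was past 1 in the same direction in both siRNA groups, against 2.15% of all genes higher and 1.4% lower in both. Across the 26 genes, Pearson's r between both CoCl2 ratios, which share no array, was 0.616, and across 14283 genes it was 0.698.

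**Figure D4:**
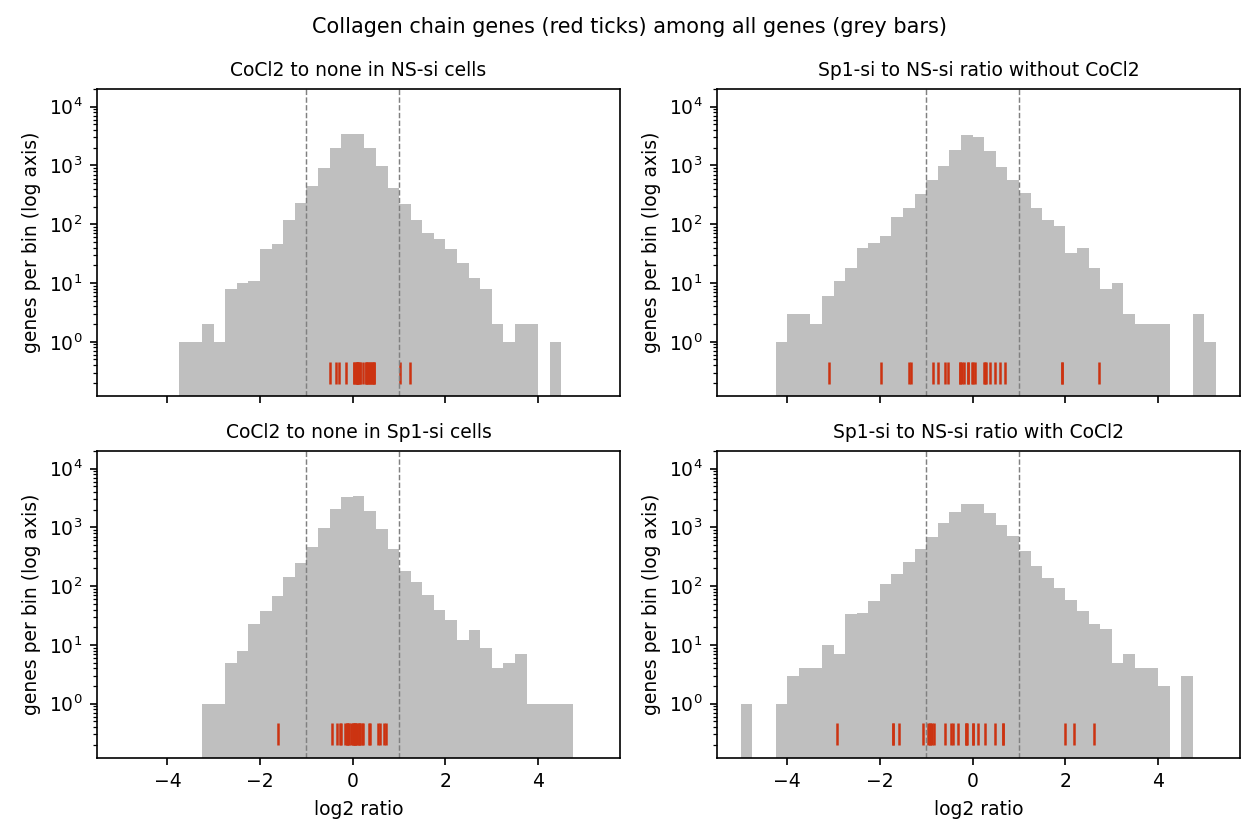
Number of all genes (grey bars, log axis) by log2 ratio in bins, for the CoCl2 ratios (left) and the Sp1-si to NS-si ratios (right), with each measured collagen chain gene as a red tick. Dashed lines mark 1 and -1. In the CoCl2 panels 2 ticks lie above 1 and 1 below -1, and in the Sp1-si panels 3 lie above 1 in each and 4 and 5 below -1.

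Collagen chains need hydroxylation, folding, trimming and cross-linking before they form fibres. Of 35 genes on a list of these steps, 30 were measured in all comparisons, and 4 were detected on no array. One of those 4 was LOX, the founding lysyl oxidase, which cross-links collagen. In NS-si cells 3 of the 30 were higher after CoCl2 and 0 lower, against 3.8% and 3.22% of all genes. The higher ones were the prolyl hydroxylase subunits P4HA1 (1.03) and P4HA2 (1.98) and the lysyl oxidase LOXL2 (1.48). The same 3 were higher in Sp1-si cells, at 1.47, 1.38 and 1.33, where 3.45% of all genes were higher. In the difference of both CoCl2 ratios 2 of the 30 were higher and 0 lower, against 0.973% and 2.88% of all genes. These were the dim genes P4HA3 at 1.01 and LOXL1 at 1.05 (SD 0.60 each), both within 1 SD of the threshold.

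In the Sp1-si to NS-si ratio without CoCl2, 3 of the 30 were higher (P3H1, LOXL2 and LOXL3, at 1.35, 1.66 and 1.29) and 2 lower (CRTAP at -1.11 and LOXL1 at -1.85), against 5.87% and 5.81% of all genes. LOXL1 was dim, with signals of 45.9 (NS-si) and 12.3 (Sp1-si) and an SD of 0.39. With CoCl2, CRTAP was at -0.96 (SD 0.08) and LOXL1 at -0.80 (SD 0.45), both short of 1 in size. With CoCl2, 7 were higher and 2 lower, against 7.06% and 7.72% of all genes. The higher ones were P4HA3, P3H1, P3H3, ADAMTS14, PCOLCE, LOXL2 and LOXL3, with LOXL3 highest at 1.53. Of these, P4HA3 at 1.002 and P3H3 at 1.026 (SD 0.45 each) were dim and within 1 SD of the threshold. Their signals were 8.5 and 11.3 in NS-si → CoCl2 cells and 22.4 and 30.2 in Sp1-si → CoCl2 cells. The other higher ones lay at 1.13 (PCOLCE, SD 0.11) or above. The lower ones were P3H2 at -1.23 and SERPINH1, the collagen chaperone of the endoplasmic reticulum, at -1.14. Of 10 collagen receptor genes 9 were measured. DDR1, a receptor kinase that binds collagen, was at -1.10 without and -1.16 with CoCl2 in this ratio, and ITGA2, a collagen-binding integrin chain, was at -0.06 and -1.55. The other 7 measured receptor genes stayed within 1 in all comparisons.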

How the data were processed

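RNA of the 4 conditions was measured on Agilent 4x44K arrays. The deposited intensities are processed signals of Agilent Feature Extraction 10.5.1.1, background-subtracted and detrended by the authors' scanner software and not normalized between arrays. Outlier flags and the calls of spots well above background (other values) come from the same deposited files. The authors' value table equals the processed signal times 1 constant per array.

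Log2 signals of non-control spots were set to the 75th percentile of each array, without outlier spots, and averaged over the spots of a probe. For a gene with several probes the one of highest mean signal was used, and symbols came from RefSeq accessions (28463 of 29877 spots matched). COL1A1, COL13A1 and COL28A1 had no matched spot, so 41 of 44 collagen symbols were covered. Where 1 side of a ratio was not well above background, a bound is given, with the dim side at the higher of its own signal and the lowest signal well above background on that array. The words at least refer to this rule and leave out the spot SD, since a probe can go uncalled above that lowest signal. In NS-si cells the lowest was 7.4, and a COL4A5 probe at 9.2 was not called. Arrays of 1 condition had no replicate, so no test was made. The SD of a ratio came from 264 probes with 10 spots, in 5 bins of mean signal over the 4 arrays, or from the own spots of a 10-spot probe. Named were genes with a ratio of at least 1 in size, a bound of at least 2-fold, or of types I and IV, plus examples of each class. The members and lists were chosen with earlier results of these data known. Alternatives were other scalings, the authors' table, normexp with an offset of 50, other filters and a fold of 1.5. Python 3.11.15, numpy 2.4.6, pandas 2.3.3, matplotlib 3.10.9, R 4.3.3 and limma 3.58.1 were used.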

Additional observations from a re-analysis of the deposited data

Results flagged for a closer look

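COL13A1, a transmembrane collagen, lies outside the genes above because the accession of its probes is absent from the reference table used, and the study's own gene table gives that accession this symbol. A single-spot probe was well above background on all 4 arrays, with signals of 11.9 (NS-si), 12.6 (Sp1-si), 18.6 (NS-si → CoCl2) and 18.1 (Sp1-si → CoCl2). It was singled out as a signal in data that the comparisons did not use, with a CoCl2 ratio of 0.874 (SD 0.43) in NS-si cells and 0.30 (SD 0.40) in Sp1-si cells on the log2 scale. A second probe with 10 spots had medians between 1.56 and 2.25 on the 4 arrays and at most 1 spot well above background on any.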

How the results depend on the processing

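No paired analysis was possible because each condition had 1 array, and for the same reason no replicate could be left out. The 19 values past 1 were recomputed under each setting that could give them, which made 163 recomputed values. Of these, 39 moved by more than the spot SD and 16 fell below 1 in size, 9 of the latter with normexp. A change of direction, seen in 0, was unlikely in advance because the values were chosen for their size. Detection on all 4 arrays ranged from 25 to 26 genes and on at least 1 array stayed at 32 under other spot rules, and was 33 and 37 by the looser call of positive and significant signals. Without scaling, the collagen medians were -0.030 and 0.27 for the CoCl2 ratios of NS-si and Sp1-si cells, 0.078 for the Sp1-si to NS-si ratio with CoCl2 and 0.28 for the difference, with 1 gene higher after CoCl2 in NS-si cells, 5 higher in Sp1-si cells with CoCl2 and 0 lower in the difference. The all-gene medians moved with them, to -0.22, 0.23, 0.38 and 0.47. Quantile normalization gave a median of -0.16 with CoCl2 for Sp1-si to NS-si. Scaling to the median gave -0.21 there and 0.15 for the CoCl2 ratio of Sp1-si cells. COL7A1 fell below 1 in NS-si cells with the percentile over probes detected on all arrays and with the authors' table, leaving 1 gene higher after CoCl2 in each.

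Normexp on the median signals was chosen after seeing the data, because the files hold no mean signal and the planned version could not be run. Its offset of 50 shrinks ratios of dim probes by construction. It left 0 genes higher after CoCl2 in NS-si cells, 0 lower in Sp1-si cells, 1 and 3 lower in the Sp1-si to NS-si ratios without and with CoCl2, and 0 in the difference. With signals of at least 100, which 13 genes met, 0 were lower after CoCl2 in Sp1-si cells, 1 and 2 lower in the Sp1-si to NS-si ratios (median -0.12 with CoCl2) and 0 in the difference. At 1.5-fold, 2 were higher after CoCl2 in Sp1-si cells, 5 higher and 7 lower in Sp1-si cells without CoCl2, 5 and 11 with it, and 3 lower in the difference. For the other values that moved by more than the spot spread, the cause was not tested. Dim signals limit COL5A1, COL6A5, COL8A1, COL8A2, COL16A1, COL21A1, COL22A1, COL23A1 and COL25A1, which share the largest spot SD (0.60 in the difference). COL20A1 is limited as well by its dim Sp1-si signals, though its mean signal falls in the next bin.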
